A study of Caenorhabditis elegans with 6 samples.

Results

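The genes described here are 4 genes of the sperm-specific family, class Q (ssq-1 through ssq-4) and 2 genes of sperm chromatin, spch-2 and spch-3. They were taken by name from a table of 20473 genes, and all 6 were present. They had been chosen by their measured fold change and adjusted p between control and diquat worms, so every value of that comparison is given for them as a description and no p is printed. The worms were whole Caenorhabditis elegans of the wild-type N2 strain. Exposure lasted 72 h at 20 °C. The treated group received 100 µg/L of diquat dibromide monohydrate, a redox-cycling bipyridyl herbicide, and the control 0 µg/L. Each group had 3 libraries of poly(A)-selected RNA, called control 1 to 3 and diquat 1 to 3 after the labels' numbers. The labels give neither the age of the worms at collection nor whether replicates came from separate cultures, so the spread between libraries may be technical.

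An N2 hermaphrodite makes its own sperm late in larval life and then switches to making oocytes for as long as it lives. In maturing sperm, transcription stops and the chromatin is compacted, with small basic proteins packed onto the DNA in addition to histones. SPCH proteins are such sperm-nuclear basic proteins, found in the chromatin of C. elegans sperm. The ssq genes are named for their restriction to sperm.

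The 6 genes lie on chromosomes I and IV only. ssq-2 (chromosome IV, 4996142 to 4997559 of the WBcel235 assembly, plus strand) and ssq-4 (5016479 to 5017766, plus strand) were 18919 bases apart. ssq-3 (chromosome IV, 7111604 to 7112885) and ssq-1 (chromosome IV, 9852550 to 9853609) stood alone on the same strand. spch-3 (chromosome I, 6098927 to 6099731, plus strand) and spch-2 (chromosome I, 6274530 to 6275291, minus strand) were separated by 174798 bases. Each gene had 1 annotated transcript, with 3 exons in every ssq gene and 2 in each spch gene. The coding regions encode 290 residues in ssq-1, 405 in ssq-2, 371 in ssq-3 and 373 in ssq-4, and 203 in both spch-2 and spch-3. Exon lengths ran from 709 bases (spch-2) to 1316 bases (ssq-2), below the median of 1416 bases over the tested genes with an annotated length. The deposited annotation places spch-2 and spch-3 in chromatin and gives the ssq genes no component, function or process. The placement of reads that fit several similar genes is not stated by the labels, so the split of counts within each family is less certain than its sum.

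Library totals ran from 23390547 to 24593469 counts, and 3 counts corresponded to 0.122 to 0.128 CPM (a count scaled by the library total). Counts were tested by quasi-likelihood in edgeR, with p adjusted after Benjamini and Hochberg. Of 13252 genes, 121 were lower with diquat (0.913%) and 0 were higher at an adjusted p under 0.05. At an unadjusted p under 0.05 there were 620 lower and 204 higher, and DESeq2 and limma-voom also called 0 higher. With the labels' replicate number as a block, 530 genes were lower (4%) and 598 higher (4.51%), so the count of 0 higher depends on leaving the block out. Without the block, 2 were higher with no expression filter. With each library's trend with exon length removed, 1 was higher, and likewise 1 without diquat 3.

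Transcripts of all 6 genes were lower in diquat worms, at about the same proportion of the control level. The mean CPM with diquat was 38.5% of control for spch-2 and 40% to 42% for the other genes. All 6 were among the 121 genes called lower, against the background of 0.913%, a count that the choice of genes fixes and from which nothing is read. CPM are scaled here by edgeR's TMM factor. The median log2 fold change of the 6 was -1.3, beside 0.01 over all tested genes. A log2 fold change at or below that of ssq-3, the nearest to 0 among the 6, was found in 1.46% of the tested genes. Because whole worms were sequenced, fewer sperm-forming cells and less of these transcripts per cell cannot be told apart.

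Among the class Q genes, ssq-4 had the highest counts, with 400, 525 and 450 in control 1, 2 and 3 and 196, 240 and 126 in diquat 1, 2 and 3. The lowest control library held more than the highest diquat library, and diquat 3 lay well under the other diquat libraries. Its level went from 19.5 ± 3.99 to 8.02 ± 3.03 CPM (mean ± SD over 3 libraries a group), a log2 fold change of -1.29 with a standard error of 0.25.

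ssq-2 was counted 314, 358 and 278 times in control worms and 120, 151 and 109 times with diquat. The groups did not overlap, and library 2 was the highest of each group. The level went from 13.5 ± 2.58 to 5.38 ± 1.36 CPM (n = 3; log2 fold change -1.32, standard error 0.21).

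ssq-1 was the steadiest class Q gene among the controls, with 269, 272 and 246 counts, and had 114, 132 and 82 with diquat. The groups were again apart, with diquat 3 lowest. In CPM it went from 11.1 ± 1.21 to 4.66 ± 1.42 (n = 3; log2 fold change -1.26, standard error 0.22).

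ssq-3 had the fewest counts of the family, 115, 159 and 169 in control and 58, 79 and 48 with diquat. Here control 1 was the low control library, and it still exceeded every diquat library. The level went from 6.26 ± 1.39 to 2.63 ± 0.887 CPM (n = 3; log2 fold change -1.26, standard error 0.26, the largest of the 6).

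Of the sperm chromatin genes, spch-3 had 424, 455 and 424 counts in control and 171, 205 and 146 with diquat. The control libraries were close together, and every diquat library lay far below them. Its level went from 18.4 ± 2.03 to 7.40 ± 1.85 CPM (n = 3; log2 fold change -1.32, standard error 0.19, the smallest of the 6).

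spch-2 had 136, 114 and 135 counts in control and 66, 37 and 46 with diquat. It differed from the other genes in its order of diquat libraries, with diquat 1 highest and diquat 2 lowest. In CPM it went from 5.40 ± 0.178 to 2.08 ± 0.598 (n = 3; log2 fold change -1.37, standard error 0.24).

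**Figure D1:**
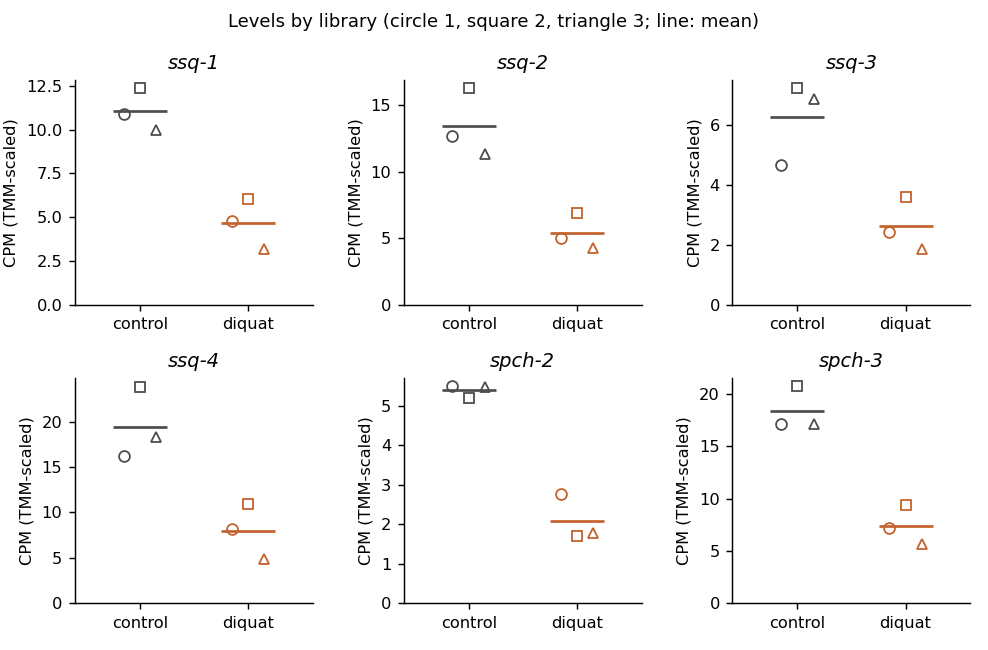
Level of each ssq and spch gene in CPM (vertical axes, each from 0) in the 3 control libraries (grey) and the 3 diquat libraries (orange), with the library number as the symbol and the group mean as a line. In all 6 panels the diquat libraries lie below the control libraries, and diquat 3 is lowest in 5 of the 6 genes.

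Every diquat library was below every control library for 6 of the 6 genes, as it was for 6.68% of the tested genes. Between libraries of the same number, all 18 log2 ratios of diquat to control were negative, from -0.92 (ssq-3, number 1) to -1.89 (ssq-4, number 3). Number 3 gave the lowest ratio for 5 of the 6 genes. The exception was spch-2, at -1.58 in both number 2 and number 3 and -0.97 in number 1.

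The edgeR calls of these genes depended on single libraries. Without control 2 the call remained for spch-3 alone and without diquat 1 for spch-2 alone, while the whole-table count of lower genes went from 121 to 38 and 27. Without control 3 it remained for ssq-1, ssq-2 and spch-3, with 83 lower genes in all. ssq-3 alone lost its call without diquat 3, with DESeq2 size factors and with each library's length trend removed. The log2 fold changes themselves moved less, and for each gene they stayed negative in every alternative.

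The spread between libraries exceeded counting error for most of the genes. Among the diquat libraries the standard deviation was 2.02 (spch-2) to 5.23 (ssq-4) times the value that counting alone would give. Among the controls it was 1.77 (ssq-1) to 4.40 (ssq-4) times that value for 5 genes. It was 0.373 times that value for spch-2, whose control libraries were closer than counting error alone would place them on average. Relative to the mean, the diquat libraries varied more than the controls in every gene, with a coefficient of variation of 25.1% to 37.8% against 3.30% to 22.3%. Fewer counts alone raise this coefficient. Relative to counting error, the diquat spread was larger for ssq-1, ssq-4, spch-2 and spch-3. It was not larger for ssq-2 (2.87 against 3.43 in control) or ssq-3 (2.67 against 2.71).

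Compared per length, as the authors' FPKM, the 6 genes kept a fixed order in the controls. From the top these were spch-3 at 24.1 ± 1.21, ssq-4 at 16.3 ± 2.45, ssq-1 at 11.3 ± 0.50, ssq-2 at 10 ± 1.25, spch-2 at 8.05 ± 0.754 and ssq-3 at 5.31 ± 1.13 FPKM (mean ± SD, n = 3). The order was the same in all 3 control libraries and in diquat 3. The ranges of ssq-1 (10.8 to 11.8 FPKM) and ssq-2 (8.96 to 11.4 FPKM) overlapped over the control libraries, and those of the other neighbours in the order did not.

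With diquat the order of the means was unchanged, from 9.86 ± 1.71 FPKM for spch-3 to 2.26 ± 0.58 FPKM for ssq-3. The ranges of every pair of neighbours then overlapped. Within a library, spch-2 stood above ssq-2 in diquat 1, at 4.23 against 3.90 FPKM, and below ssq-3 in diquat 2, at 2.35 against 2.89 FPKM.

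The composition of the group changed little. spch-3 made up 31.6% to 32.6% of the summed FPKM of the 6 genes in control and 30.2% to 33.3% with diquat. ssq-4 made up 19.8% to 23.4% and 18.6% to 24.1%. Per 100 FPKM of the class Q genes together, spch-2 and spch-3 together had 80.1, 68.1 and 76.9 FPKM in control 1, 2 and 3 and 76.5, 62.5 and 83.1 in diquat 1, 2 and 3, so the groups overlapped and library 2 was lowest in each.

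The balance of the spch genes was less even. Per 100 FPKM of spch-3 there were 36.3, 28.4 and 36.1 FPKM of spch-2 in control 1, 2 and 3, and 43.4, 20.2 and 36.1 in diquat 1, 2 and 3. Library 2 was again lowest in each group, and the groups overlapped. Summed over both genes the counts were 560, 569 and 559 in control and 237, 242 and 192 with diquat. The summed counts of the 4 class Q genes were 1098, 1314 and 1143 in control and 488, 602 and 365 with diquat.

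Across the 6 libraries the genes moved together, spch-2 less so within the groups. Pearson's r of log2 CPM between pairs of them was 0.81 to 0.99 with a median of 0.97 over the 15 pairs, and these values include the difference between the groups. On deviations from the group means r was -0.28 to 0.97 with a median of 0.88. The points are 6 libraries shared by all genes, so these are descriptions. The mean deviation over the 6 genes was 0.32 (log2 CPM) in diquat 2 and -0.40 in diquat 3, and 0.19 in control 2 and -0.13 in control 1. spch-2 departed from this, at -0.25 in diquat 2, 0.43 in diquat 1 and -0.05 in control 2. Summed oocyte genes and summed germ cell genes were also highest in library 2 of each group, so that order is not particular to the 6 genes. Libraries 2 also had the lowest TMM factors, 0.919 and 0.933 against 1.00 to 1.09 in the others. The part of scaling in these deviations was not tested.

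The 8 named genes most like the group, by Pearson's r of log2 CPM with the mean of the 6 over the 6 libraries, were cuticle collagens and major sperm protein genes. They were col-49 (r = 0.9976), msp-53 (0.9955), col-81 (0.9946), col-146 (0.9927), col-129 (0.9925), msp-19 (0.9921), col-145 (0.9912) and col-139 (0.9909), out of 6024 genes whose mean count reached 50 and which carry a standard gene name. Of those 6024, 1.84% were named col and 0.398% msp, against 6 and 2 of the 8. The r includes the group difference for which the 6 genes were chosen, so genes that fell with diquat are favoured. Each of the 8 was called lower, and nothing is read from these shares. On deviations from the group means, r of the 8 was 0.92 (col-145) to 0.99 (col-49). Collagens of this kind build the cuticle and are made by the epidermis, and the major sperm proteins form the filaments with which nematode sperm crawl.

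col-81 had 1034, 1108 and 1179 counts in control and 427, 508 and 296 with diquat. col-49 had 108, 119 and 107 counts in control and 45, 46 and 35 with diquat. Because the 8 genes were chosen for this likeness over the same libraries, their library order adds nothing to it.

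**Figure D2:**
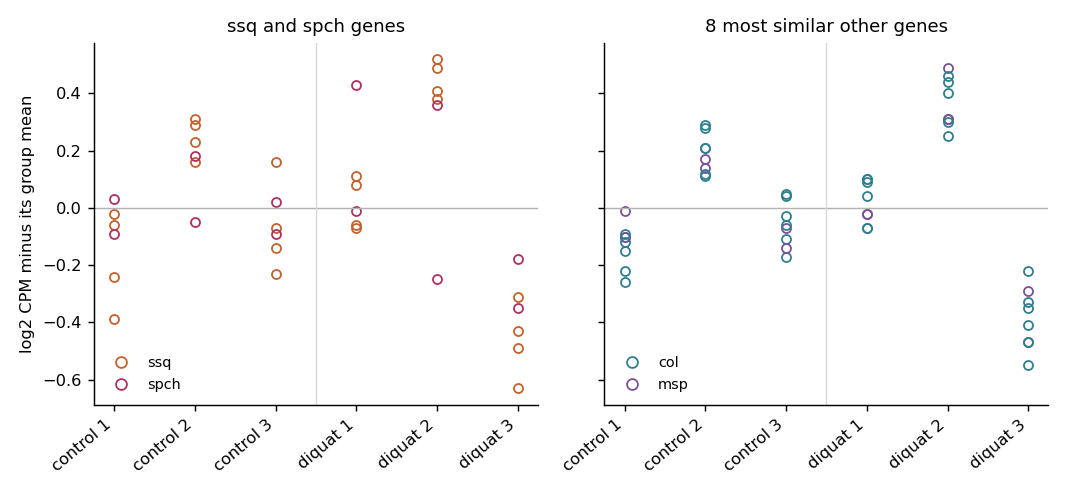
Log2 CPM minus its mean over the group's 3 libraries (vertical axis), by library, for the 6 ssq and spch genes (left) and the 8 genes most like them (right), which were chosen for that likeness over these libraries. Points of diquat 3 lie below 0 in both panels, and points of diquat 2 above 0 except spch-2 at -0.25.

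A list of other sperm chromatin genes, picked by name, gave lower transcript levels as well. The list held 6 genes. Its members on chromosomes I and IV were 6 of 6, as were those of the ssq and spch genes, beside 32.9% of the tested genes. The share was 77.3% for ssp and nspd genes, 73.3% for spe and fer genes and 58.1% for msp genes. A lean to these chromosomes is thus not particular to sperm chromatin and class Q genes. Of 5 tested, 2 fell and 0 rose in edgeR's test, with a median log2 fold change of -1.16 beside 0.01 over all genes. With the replicate number as a block, all 5 fell, against 4% of the tested genes called lower and 4.51% called higher in that fit. Without control 2, control 3 or diquat 1, 0 of the 5 passed.

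spch-1 (chromosome IV, 10110818 to 10111541), the third gene of its family, with 197 residues, had 259, 273 and 293 counts in control and 123, 169 and 86 with diquat. The groups did not overlap. It was at 11.6 ± 0.999 and 5.40 ± 2.20 CPM (n = 3; log2 fold change -1.11, standard error 0.25), and it missed the edgeR threshold, with an adjusted p of 0.0685. Over the alternatives the adjusted p was 7.71e-12 to 0.39, and it was below 0.05 with DESeq2, with limma-voom, without the expression filter, with the block and without diquat 2. Of the 6 genes, ssq-1 and ssq-3 had the log2 fold change nearest to it, at -1.26.

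gsp-3 and gsp-4 encode sperm-enriched catalytic subunits of protein phosphatase 1. gsp-3 had 123, 148 and 165 counts in control and 48, 66 and 62 with diquat (log2 fold change -1.31, edgeR adjusted p = 0.0138). gsp-4 had 169, 161 and 193 counts in control and 80, 89 and 64 with diquat (log2 fold change -1.16, edgeR adjusted p = 0.0182). Both fell, and neither had overlapping groups, but gsp-3 lost its call without control 2, control 3 or diquat 1 (adjusted p = 0.0916, 0.0633 and 0.133), as did gsp-4 (0.093, 0.0721 and 0.137).

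smz-1 and smz-2, which encode PDZ-domain proteins annotated to chromosome segregation in male meiosis, did not pass. smz-2 had 30, 57 and 42 counts in control and 18, 9 and 19 with diquat (log2 fold change -1.51, with a 95% interval from -2.34 to -0.69; adjusted p = 0.117 in edgeR and 0.0123 with the block). smz-1 had 67, 55 and 55 in control and 39, 37 and 22 with diquat (log2 fold change -0.84, with a 95% interval from -1.49 to -0.20; adjusted p = 0.479 in edgeR and 0.0448 with the block). In both genes the diquat libraries lay below the control libraries. htas-1, which encodes an H2A variant of sperm, had 7, 9 and 6 counts in control and 1, 1 and 3 with diquat. It did not pass the expression filter, and without the filter it was not called (log2 fold change -2.09, adjusted p in edgeR 0.692).

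**Figure D3:**
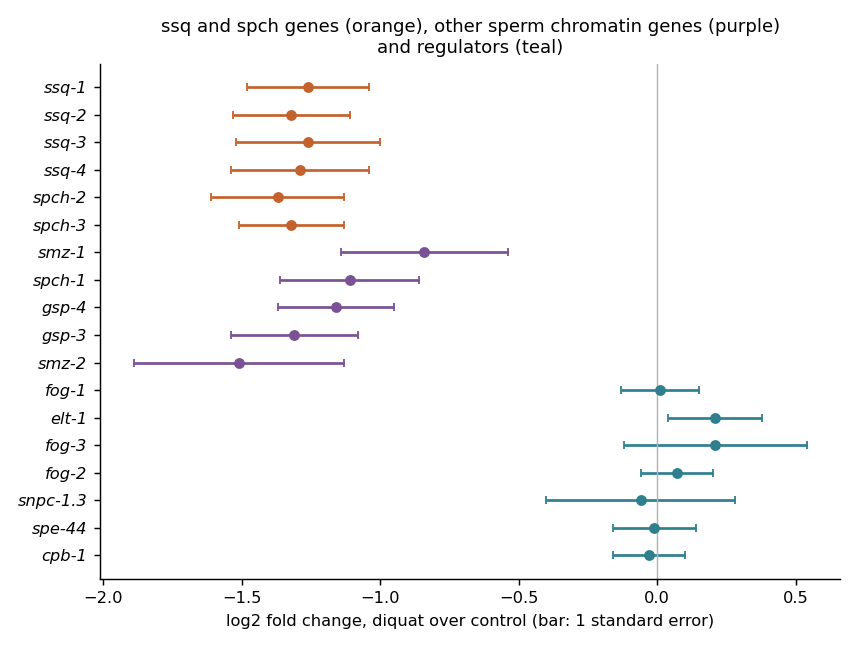
Log2 fold change of diquat over control from edgeR (horizontal axis, bars of 1 standard error) for the 6 ssq and spch genes, 5 other sperm chromatin genes and 7 regulators of sperm fate or sperm transcription. The ssq and spch genes lie between -1.37 and -1.26, the other sperm chromatin genes between -1.51 and -0.84 and the regulators between -0.06 and 0.21.

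Regulators of sperm fate or of transcription in sperm formation gave no call. Of 7 tested, 0 passed the edgeR test in either direction, 0 had an unadjusted p under 0.05, and DESeq2, limma-voom and the blocked fit also called 0. spe-44, a transcription factor for genes of spermatogenesis, was at 10.8 ± 0.709 and 10.7 ± 0.428 CPM (n = 3; log2 fold change -0.01, 95% interval -0.33 to 0.31). elt-1, a GATA factor, had a log2 fold change of 0.21 (95% interval -0.16 to 0.58). The piRNA transcription factor subunit gene snpc-1.3 was at -0.06 (-0.78 to 0.66).

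Of the genes that set germ cells to the sperm fate, fog-1 had a log2 fold change of 0.01 (95% interval -0.29 to 0.31), fog-2 of 0.07 (-0.22 to 0.36) and fog-3 of 0.21 (-0.49 to 0.91). cpb-1, which encodes an RNA-binding protein needed in spermatocytes, was at -0.03 (-0.32 to 0.25). The lowest bound of these 7 intervals was -0.78 (snpc-1.3). The ssq and spch genes were chosen by their fold change in this comparison, so nothing is read from setting these intervals against their falls. elt-1 is also made in the epidermis, so its level in whole worms is not that of the germ line alone.

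Genes of sperm proteins outside chromatin gave different counts by family. Of 27 tested msp genes 18 fell and 0 rose, with a median log2 fold change of -1.31, among them msp-59 (-1.21) and msp-19 (-1.3), those with the highest mean count. Without control 2 the count was 9, and without diquat 1 it was 4. The msp genes are near-identical, so single values are uncertain. The 6 ssq and spch genes together had 13.6, 15.2 and 14.7 FPKM per 100 FPKM of the msp genes in control 1, 2 and 3 and 14.6, 14.4 and 13.1 in diquat 1, 2 and 3, with overlapping groups.

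Of 15 tested genes of the ssp and nspd families 4 fell (ssp-11, ssp-16, ssp-34 and nspd-1) and 0 rose, with a median of -1.28, and 9 fell with the block. The count was 1 without control 1, control 2, control 3, diquat 1 or diquat 3 and 1 with each library's length trend removed. The most abundant of these, ssp-37 and ssp-10, were at -0.43 and -1.04 on the log2 scale without passing (adjusted p in edgeR 0.773 and 0.102). Of 13 tested spe and fer genes, named for defective spermatogenesis or fertilization, 0 passed, with a median of -0.34. At an unadjusted p under 0.05 there were 2 lower and 0 higher, DESeq2 called 1 lower and limma-voom 0. With the block 1 fell (F32A11.3, annotated as spe-18) and 1 rose (spe-39), both named here after their values were seen. The most abundant, spe-39 and spe-48, had log2 fold changes of 0.29 and 0.02.

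**Figure D4:**
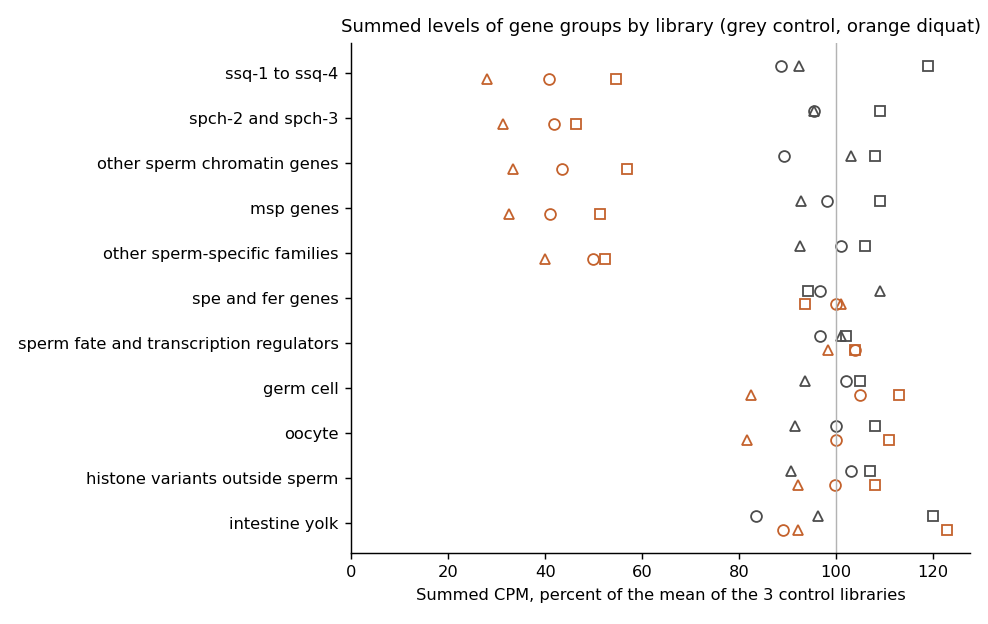
Summed CPM of each gene group in each library, as percent of the mean of the 3 control libraries (horizontal axis), with control in grey, diquat in orange and the library number as the symbol. The ssq genes with diquat lie at 28.1% to 54.6% and the 2 spch genes at 31.3% to 46.4%, while regulators, germ cell, oocyte, histone variant and yolk genes lie around 100%.

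Marker lists of other cells gave the following levels, and their part in the result was not tested. Summed over 9 oocyte genes the level was 9520 to 11200 CPM in control and 8490 to 11500 CPM with diquat, and 0 of the 9 passed edgeR, with medians near 0 (-0.03). General germ cell genes, such as gld-1 and glp-1, summed to 2140 to 2390 and 1890 to 2590 CPM, with 0 of 6 past the test. Histone variants from outside the sperm lists (htz-1, his-71, his-72 and his-24) had 0 of 4 past it and log2 fold changes from -0.08 to 0.04. Whether they are absent from sperm was not tested. In these 3 lists 0 genes had an unadjusted p under 0.05, and DESeq2 and limma-voom called 0. Diquat 3 had the lowest sum of oocyte genes and of germ cell genes among all libraries, as it had of the ssq and spch genes, at 81.7% and 82.4% of the control mean against 29.1%.

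Yolk genes, made in the adult intestine, summed to 107000 to 155000 CPM in control and 115000 to 158000 CPM with diquat, the highest sum of each group being in library 2. Of the 6, 0 passed edgeR, DESeq2 or limma-voom, 2 had an unadjusted p under 0.05 as higher, and 4 rose with the block (vit-1, vit-3, vit-4 and vit-5), where 4.51% of all tested genes did. Removing the length trend in the blocked fit gave 3 higher and 1 lower. Genes of the male nervous system were near 0, with 14 to 15 counts over 7 genes in each control library and 15 to 29 with diquat, and cwp-3 was at 0 throughout. try-5, a protease of male seminal fluid, had 2 to 8 counts per library. Defining markers of males were at or near 0 in both groups. The higher sums of the male nervous system genes were in diquat 2 and diquat 3. For try-5, diquat 3 was highest with 8 counts, and diquat 2 had 4, against 2 to 5 in control.

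Near the 6 genes lay other sperm genes. Of 23 tested genes with any part within 10000 bases of an ssq or spch gene, 4 fell (17.4%, beside 0.913% of all tested genes) and 0 rose, with a median log2 fold change of -0.13. DESeq2 called 5 of the 23 lower, without ssp-11, limma-voom called 3 lower, and both called 0 higher. Leaving out single libraries left 1 (ssp-11) without control 1, control 2, control 3 or diquat 1, and 2 remained without diquat 3 or with the length trend removed. With the block 6 fell and 2 rose (npp-1 and rde-8).

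Beside spch-3, nspd-1, which lay 1136 bases away, fell by 1.23 on the log2 scale (adjusted p in edgeR 0.0429). ssp-16 at 2336 bases fell by 1.58 (adjusted p in edgeR 0.0329). The antizyme gene oaz-1, farther out on the side of nspd-1, was at -0.13 and nmrk-1 at 0.28. Close to spch-2, C10G11.8 at 745 bases fell (-1.90, edgeR adjusted p = 0.0244), named here after its value was seen, and chdp-1 was at 0.02.

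On chromosome IV, ssq-2 lay between ssp-9 at 1442 bases (-0.33 on the log2 scale, adjusted p in edgeR 0.838) and ssp-11 at 1926 bases (-4.66, adjusted p of 0.00641 in edgeR but 0.464 in DESeq2). The ssp-11 counts were 165, 84 and 90 in control and 13, 0 and 0 with diquat, and those of ssp-9 were 65, 98 and 108 against 59, 102 and 53. The gene listed as ssp-11 is named ssp-9 in the Ensembl annotation, and how reads were split between these related genes is not given, so both values are uncertain. pes-1, at 5189 bases, was at -0.13. ssq-1 lay 1519 bases from ssp-10 (-1.04, edgeR adjusted p = 0.102) and 8278 bases from nspd-2 (-1.43, edgeR adjusted p = 0.0645), and npp-1 on its other side was at 0.26. Beside ssq-3, nas-8 was at -0.79 and rde-8 at 0.33, with adjusted p-values in edgeR of 0.819 each.

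ssq-4 overlapped T28H11.7 on the opposite strand by 697 bases. Whether counting used strand is not given, so reads of that overlap cannot be assigned to a gene with certainty. T28H11.7, named for this overlap, averaged 0.94 CPM over the controls and 0.484 CPM over the diquat libraries, against 19.5 and 8.02 CPM for ssq-4.

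**Figure D5:**
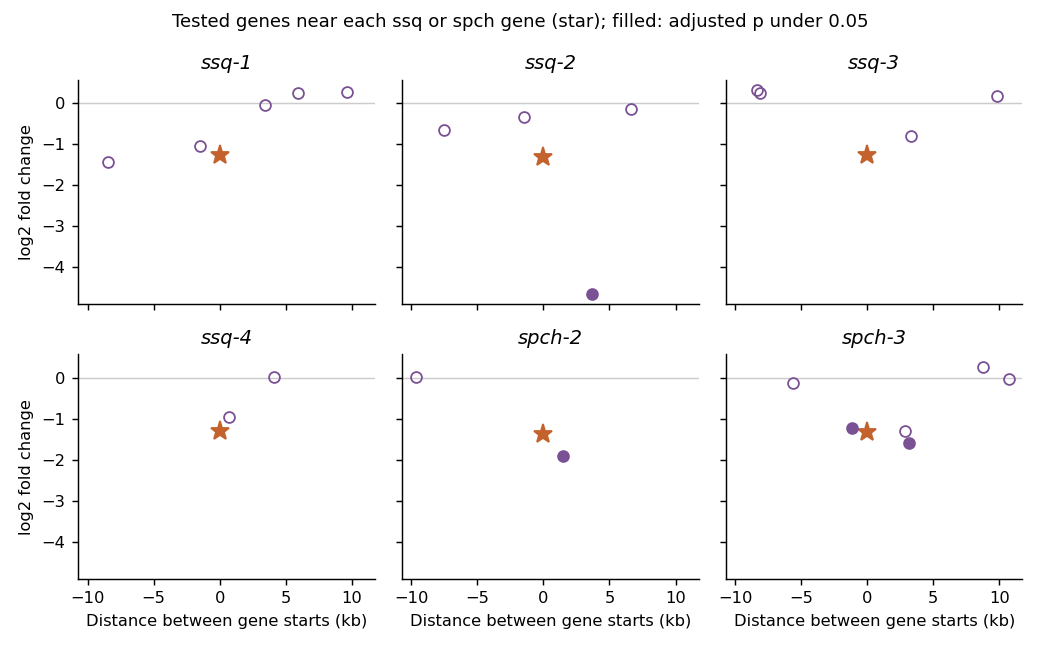
Log2 fold change (vertical axis) of the tested genes within 10000 bases of each ssq or spch gene, against the distance between gene starts in kb, positive in the direction of transcription of the gene at 0 (star). Filled circles are the 4 genes with an adjusted p under 0.05, which lie near ssq-2, spch-2 and spch-3.

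In the authors' deposited table the log2 fold changes of the 6 genes were -1.34 (spch-2) to -1.23 (ssq-1 and ssq-3). All 6 had an FDR under 0.05 in the authors' deposited table, as had 0.752% of its genes in that direction. The choice of genes fixes this count too, and nothing is read from it.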

How the data were processed

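RNA-seq of whole worms was compared between 3 control and 3 diquat libraries. Per the submitters' processing notes, fastp 0.18.0, HISAT2, StringTie 1.3.1, RSEM and WBcel235 were used. Their roles are not listed there. The authors deposited whole-number counts, treated as estimated counts (expected counts) that were rounded, since RSEM is named and 94 values are 0 beside an FPKM above 0. The deposited FPKM, their group means, log2 fold change and p-value and FDR come from the authors. Which test the authors ran is not stated by the labels or headers.

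Counts were tested with edgeR 4.0.16 (R 4.3.3; TMM, default filter, robust quasi-likelihood test, group as the only term, Benjamini-Hochberg adjustment, threshold 0.05). A prior count of 2 entered log2 CPM. The standard errors follow from the F statistic and are approximate. Intervals and floors cover counting error or spread between libraries only. Alternatives were DESeq2 1.42.0, limma-voom (limma 3.58.1), DESeq2 size factors, no filter, each library's trend with exon length removed (loess, span 0.5; 231 genes without a length uncorrected), a replicate block and each library left out. Fits were tested on simulated data. Ensembl release 115 (WBcel235) gave positions for 20105 genes.

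Across genes, libraries with the same number departed from their group means together, with r of 0.155, 0.20 and 0.459. Each is over 0.1, although control 1 and diquat 2, of different numbers, reached 0.208. The labels' numbers were used as pairs only for ratios between libraries of the same number and in the blocked alternatives. The main fit did not use them. No pair of libraries of a group was within sampling noise (chi-square per degree of freedom 15.5 or more). The genes and lists were chosen with earlier results of these data known. Named genes were the 6 genes, the sperm chromatin and regulator lists, the 8 most similar genes, named neighbours within 10000 bases and the 2 most abundant of the other sperm lists. Sperm, oocyte, male, yolk, germ cell and histone lists served as markers. plg-1 was not analysed here.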

Additional observations from a re-analysis of the deposited data

How the results depend on the processing

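All 6 log2 fold changes were negative in every alternative run. Leaving out 1 library gave a median of -1.53 to -1.12, with ssq-1 at -1.48 to -1.05, ssq-2 at -1.54 to -1.16, ssq-3 at -1.54 to -1.07, ssq-4 at -1.57 to -1.04, spch-2 at -1.62 to -1.25 and spch-3 at -1.52 to -1.17. The number of the 6 genes called then ran from 1 to 6, genes lower in all from 27 to 116, genes higher from 0 to 1, other sperm chromatin genes from 0 to 3, msp genes from 4 to 20, ssp and nspd genes from 1 to 3 and spe and fer genes from 0 to 1. With the replicate block, 530 genes were lower and 598 higher, with 5 sperm chromatin, 9 ssp and nspd and 1 spe and fer genes lower. The block with the length trend removed gave 830 lower and 449 higher, with 5, 9 and 2 of these lists. The block left all 6 genes called. The length trend removed alone gave 1 gene higher and 1 ssp or nspd gene lower. Without the expression filter 2 genes were higher, and 4 sperm chromatin, 7 ssp and nspd and 1 spe and fer genes were lower. DESeq2 called 1 spe or fer gene and limma-voom 2 ssp and nspd genes lower. The cause of these differences was not tested. Where 1 library was left out, the group kept 2.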
